A study of Danio rerio with 20 samples.

Results

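The genes described here encode the factors that start and extend protein chains on the cytosolic ribosome, together with the cytosolic poly(A)-binding proteins and the translationally controlled protein TPT1. They are the genes of the count table whose zebrafish symbol, ignoring case, begins with eif or eef and a digit or with pabpc, or is tpt1, without the eif2ak kinases. The rule found 85 of 32266 genes, of which 62 were initiation factor (eif) genes, 18 were elongation factor (eef) genes, 4 were pabpc genes and 1 was TPT1. Symbols are printed as the name table gives them, many of them in capitals, and where genes share a symbol the chromosome or the Ensembl identifier is added.

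Initiation brings the small ribosomal subunit, the initiator tRNA and the capped end of an mRNA together and finds the start codon. eIF2 delivers the initiator tRNA, eIF3 holds the small subunit, and the eIF4 proteins bind and unwind the cap end of the mRNA, where the eIF4E-binding proteins compete with eIF4G for eIF4E. In elongation eEF1A carries each aminoacyl-tRNA to the ribosome, the eEF1B complex reloads eEF1A with GTP, and eEF2 moves the ribosome along by 1 codon. In mammals many mRNAs of this machinery, among them those of eEF1A1, eEF2, PABPC1, TPT1 and the ribosomal proteins, begin with a run of pyrimidines through which mTOR controls their translation.

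RNA was sequenced from cells of the spinal cord of adult Tg(olig2:eGFP) zebrafish, which carry a fluorescent reporter driven by olig2, and the labels call the sorted cells oligodendrocyte progenitors. The lesion group had the cord cut and was sampled 7 days later, and the sham group was operated in the same way with the cord left whole. Each group has 10 libraries. Per the labels' protocols 9 cords per group, cut as short pieces on the rostral side of the injury or at the same level in sham fish, were dissociated together, so that the libraries of a group may be portions of 1 pool of cells. The p-values below then describe how far these libraries differ among themselves, a spread that may be technical. In such bulk samples a gene can be higher because more cells express it or because each cell holds more of its RNA, and these cannot be told apart.

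Library totals ran from 7134670 to 10264810 counts. Lesion libraries held counts of 13562 to 16518 genes and sham libraries of 10328 to 13117, so that the groups did not overlap. The lineage markers OLIG2 (7490 CPM after lesion and 8302 CPM in sham, where CPM are counts scaled to a common total) and SOX10 (672 and 719 CPM) were present in every library, whereas PDGFRA, a marker of progenitors, had counts in 1 library of each group, and the myelin gene mbpa averaged 14620 CPM after lesion and 30590 CPM in sham and its paralog mbpb 2925 and 602 CPM. Of the markers of other cells, the summed level of 7 microglia and macrophage genes was 5255 to 9631 CPM after lesion and 329 to 1349 CPM in sham. Nearly all of it was apoeb (7393 and 691 CPM), which other glia can express. The other tested gene of the list, AIF1L, was also higher (145 and 55.6 CPM), LCP1 had no count, and csf1ra, SPI1, ptprc and CORO1A each averaged below 4 CPM in both groups. The summed levels of ependymal and radial glial markers (1556 to 4857 against 276 to 2995 CPM) and of neuronal markers (748 to 1824 against 357 to 1061 CPM) overlapped between the groups. Of their tested genes, 2 of 5 and 1 of 7 were higher after lesion and 0 lower, namely GFAP (209 and 16.3 CPM), S100B (375 and 165 CPM) and tubb5 (655 and 79.1 CPM), and her4.1, which was not tested, averaged 68.3 and 0.110 CPM. Of the neuronal genes tubb5 differed most in mean CPM, and the others went either way without a call. ELAVL3 (225.4 and 280.7 CPM), ELAVL4 (102.8 and 130.9 CPM) and SYT1 (13.8 and 16.99 CPM) had lower means after lesion. The SNAP25 and STMN2 genes had higher means, and gap43 had no count. Endothelial genes summed to below 15 CPM in every library, and the red cell genes hbaa1 and hbaa2 had no count. The part of these markers in the results below was not tested. Detected genes entered a fit described below, which cannot part them from group because the groups did not overlap in them.

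Of the 85 genes, 78 had enough counts for the comparison, 6 fell below the filter on low counts and 1 had no count. After lesion 21 of the 78 were higher and 3 were lower (edgeR quasi-likelihood test, adjusted p under 0.05 over 10467 genes), against 4.34% higher and 3.24% lower, or 7.58% in either direction, among all genes tested. The translation factor genes called higher make up 26.9% of those tested and those called lower 3.85%. These shares are not matched for abundance or error. The median level was 84.8 CPM and the median standard error 0.29 for the tested translation factor genes, against 24.95 CPM and 0.76 for all genes tested. The log2 fold change was above 0 for 58 and below 0 for 20, with a median of 0.52, where the median of all genes tested was 0.03. With limma-voom, another test, these medians were 0.73 and 0.70. In 7 genes every lesion library lay above every sham library, which held for 1.45% of all genes tested, and in 0 genes did every lesion library lie below every sham library (0.554% of all genes). These counts and medians are given as a description with no test over the list.

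Initiation and elongation factors were compared by counts and by levels. Of 60 tested eif genes 13 were higher and 2 lower, with a median log2 fold change of 0.53. Of 15 tested eef genes 6 were higher and 1 lower, with a median of 0.32. Sorted by what the proteins do, with eIF5A placed among elongation factors and regulators and binding proteins in neither class, 11 of 50 initiation genes were higher and 1 lower (median 0.56), and 8 of 13 elongation genes were higher and 1 lower (median 0.89). The order of the class medians turned with the way genes were sorted. The share of genes called higher was the larger in elongation factors either way. These are counts over genes with no test between the classes.

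**Figure D1:**
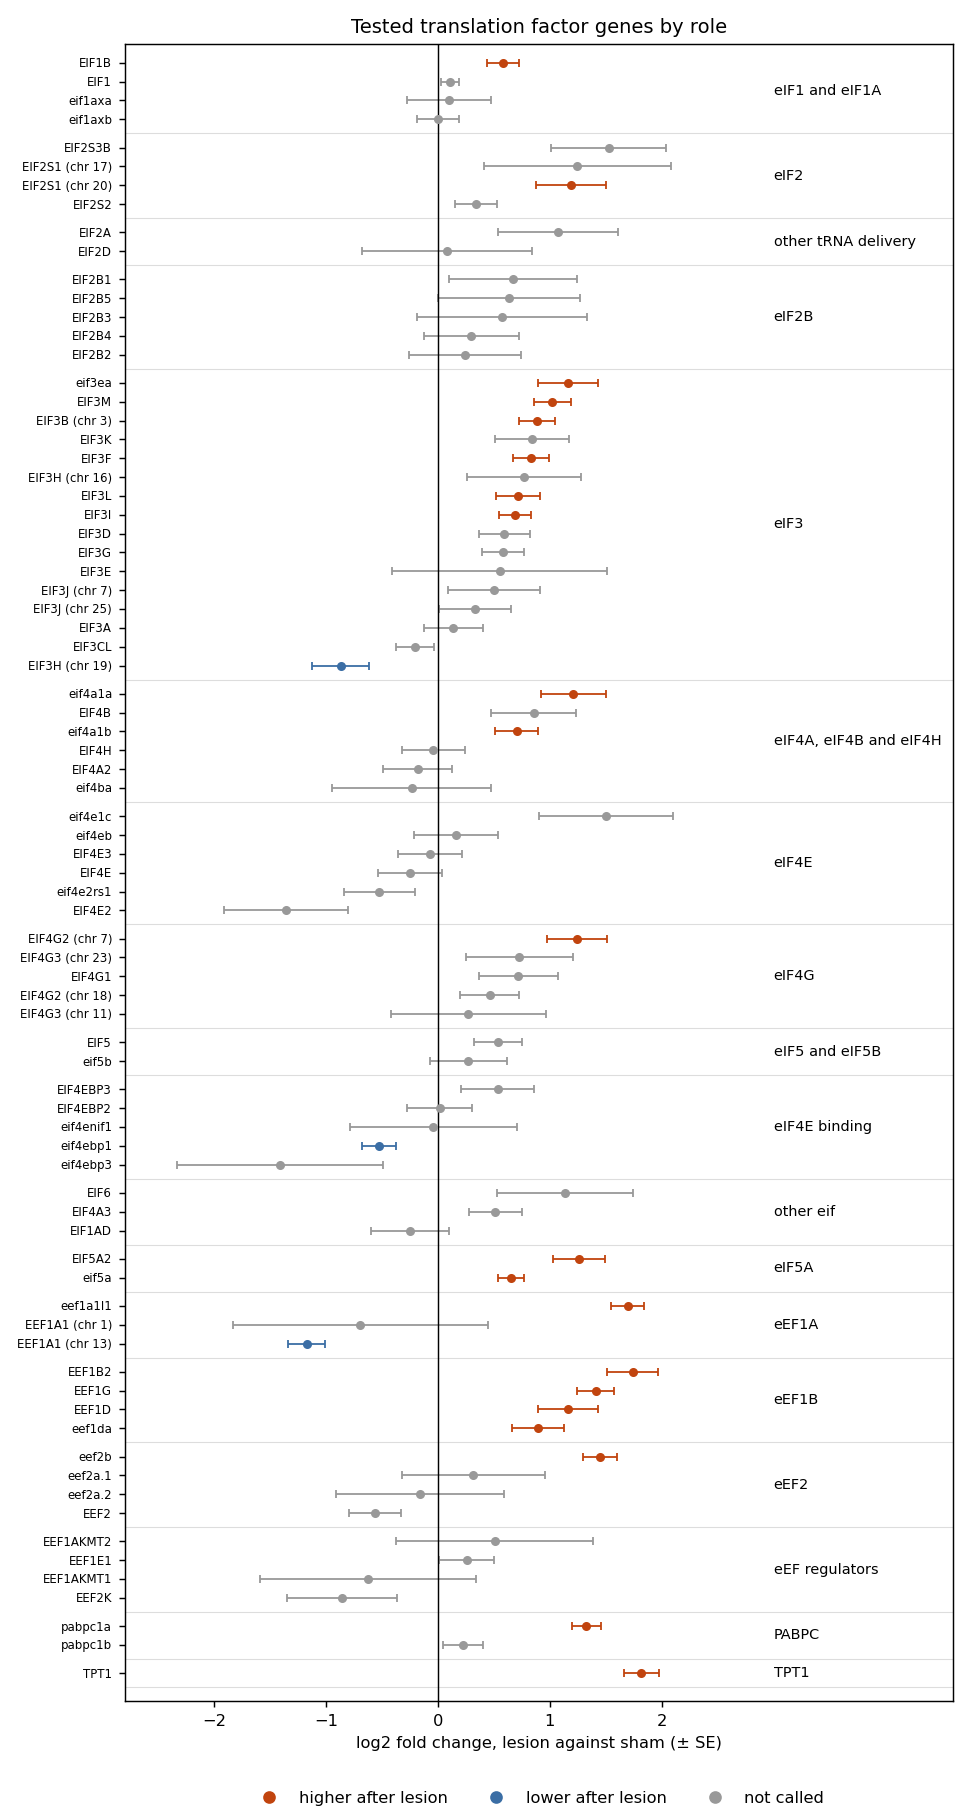
Log2 fold change of lesion against sham for the 78 tested translation factor genes, in rows ordered by role; points are edgeR estimates and bars 1 standard error. The 4 eEF1B genes all lie right of 0 in the called colour, the eEF1A genes lie on both sides, and of the 6 eIF4E genes none is called.

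Of the factors that act at the start codon EIF1B rose, and EIF1, eif1axa, eif1axb and EIF5 did not pass the test. EIF1, which guards against starting at a wrong codon, had 1081, 1356 and 1455 CPM in the lowest, median and highest lesion library and 1019, 1226 and 1437 CPM in sham. The groups overlapped, and the coefficient of variation between libraries was 8.54% after lesion and 10.6% in sham. Its log2 fold change of 0.11 ± 0.08 (SE) missed the threshold (edgeR adjusted p = 0.649). Its paralog EIF1B had 163, 204 and 221 CPM after lesion and 91.1, 126 and 176 CPM in sham, and 7 of 10 lesion libraries lay above the highest sham library. Its log2 fold change was 0.58 ± 0.15 (SE; edgeR adjusted p = 0.0111). The eIF1A genes eif1axa and eif1axb, which help scanning, had log2 fold changes of 0.10 and -0.00 and were not called. EIF5 makes eIF2 hydrolyse its GTP at the start codon. It averaged 373 ± 89.3 CPM after lesion and 258 ± 103 CPM in sham and did not pass the test (log2 fold change 0.53, edgeR adjusted p = 0.178). For EIF5 the title rows, the letter A or B in the sample titles, gave different values, 0.98 in row A (edgeR adjusted p = 0.0438) and -0.01 in row B.

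Among the eIF2 subunits 1 of 4 genes was called. EIF2S1 on chromosome 20, which encodes the alpha subunit that stress kinases phosphorylate, had 73.0, 121 and 151 CPM after lesion and 11.7, 56.8 and 93.6 CPM in sham. Its ranges overlapped, with 7 lesion libraries above the highest sham library, and its log2 fold change was 1.19 ± 0.31 (edgeR adjusted p = 0.0168). The copy on chromosome 17 had a fold change of like size but varied more and was not called (1.25 ± 0.84, edgeR adjusted p = 0.595). With limma-voom that copy was called (3.36, limma-voom adjusted p = 0.0302). EIF2S3B, the gamma subunit that binds GTP and the tRNA, had 180, 254 and 358 CPM after lesion and 0.115, 104 and 163 CPM in sham. Every lesion library lay above every sham library, yet the gene missed the threshold (log2 fold change 1.53 ± 0.51, edgeR adjusted p = 0.0784). The lowest sham library was replicate 6, and without it EIF2S3B passed (edgeR adjusted p = 0.00543), as it did with DESeq2, with limma-voom, without a filter and in row B alone. EIF2S2, the beta subunit and the most abundant of these genes per length, averaged 220 ± 64.2 CPM after lesion and 174 ± 48.4 CPM in sham and was not called (0.34, edgeR adjusted p = 0.432).

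None of the 5 genes of eIF2B, which reloads eIF2 with GTP, was called. All 5 had a log2 fold change above 0 with all libraries together, from 0.24 for EIF2B2 to 0.67 for EIF2B1, but EIF2B2 turned to -0.73 in row B alone and to -0.27 with detected genes as a covariate. EIF2A and EIF2D, which can bring initiator tRNA without eIF2, were not called either; EIF2A averaged 52.2 ± 10.8 CPM after lesion and 24.9 ± 16.7 CPM in sham (log2 fold change 1.07, edgeR adjusted p = 0.35).

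The subunits of eIF3, the largest initiation factor, gave 7 of the 15 called eif genes. Of 16 tested genes 6 were higher and 1 lower, and 14 had a log2 fold change above 0, a number that was the same in each of the 10 other settings. Of all 10467 genes tested 5405 lay above 0. With limma-voom the eIF3 median was 0.80 and that of all genes tested 0.70, so that the signs say little about eIF3 there. EIF3M had 155, 198 and 279 CPM after lesion and 56.7, 99.0 and 148 CPM in sham, so that the groups did not overlap. Its increase was 1.02 ± 0.17 in log2 units (edgeR adjusted p = 0.000145). EIF3B on chromosome 3, whose protein is a scaffold of the complex, averaged 586 ± 111 CPM after lesion and 318 ± 87.9 CPM in sham and had 9 of 10 lesion libraries above the highest sham library (0.88, edgeR adjusted p = 0.000481). The gene eif3ea rose by 1.16 in log2 units (245 ± 55.6 against 109 ± 49.7 CPM, edgeR adjusted p = 0.00608). EIF3F, the most abundant eIF3 gene per length, rose by 0.83 (225 ± 20.0 against 126 ± 41.0 CPM, edgeR adjusted p = 0.000893), EIF3I by 0.69 (edgeR adjusted p = 0.00236) and EIF3L by 0.71 (edgeR adjusted p = 0.0227). The 4 lesion libraries of EIF3F above the highest sham library and the 2 of EIF3L show that these groups overlapped.

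EIF3H was the exception, with 1 of its 2 copies lower. The copy on chromosome 19 had 31.9, 56.2 and 106 CPM after lesion and 58.2, 123 and 168 CPM in sham, with 5 lesion libraries below the lowest sham library. Its log2 fold change was -0.87 ± 0.26 (edgeR adjusted p = 0.036). The call is weak: it was kept in 6 of the 20 fits that each left out 1 library, and the adjusted p reached 0.0765. The copy on chromosome 16 had 59.0, 91.6 and 154 CPM after lesion and 0, 66.6 and 108 CPM in sham and was not called (0.77 ± 0.51, edgeR adjusted p = 0.586). The large subunits EIF3A (0.14) and EIF3CL (-0.21) were not called, nor were EIF3D (0.59, edgeR adjusted p = 0.138), EIF3G (0.58, 0.064) and EIF3K (0.84, 0.164). The second EIF3B gene, on chromosome 1, lay below the filter, with 413 counts in all libraries together.

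At the cap, 2 of 3 eIF4A helicase genes rose and 0 of 6 eIF4E genes passed the test. The helicase gene eif4a1a had 182, 274 and 501 CPM after lesion and 26.5, 127 and 188 CPM in sham, with 8 lesion libraries above the highest sham library. Its log2 difference was 1.21 ± 0.29 (edgeR adjusted p = 0.00814). The gene eif4a1b had 378, 445 and 564 CPM after lesion and 117, 268 and 483 CPM in sham, with 3 lesion libraries above the highest sham library, and rose by 0.70 ± 0.19 (edgeR adjusted p = 0.0236). That call was lost without lesion replicate 3 or without lesion replicate 9, where the adjusted p was at most 0.0533. The third helicase gene, EIF4A2, averaged 58.2 ± 23.9 and 66.1 ± 32.7 CPM (-0.18, edgeR adjusted p = 0.936).

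Of the eIF4E genes 0 of 6 passed the edgeR test, and their median log2 fold change was -0.16. The sign of this median was not stable: it was 0.14 in row A alone, -0.50 in row B alone and 0.04 with detected genes as a covariate. The fish gene eif4e1c had 107, 168 and 280 CPM after lesion and 0.122, 53.0 and 128 CPM in sham. Over all 20 libraries together, though not in sham alone, it was the most abundant eIF4E gene per length. In 8 lesion libraries it lay above the highest sham library, but the spread was wide and it was not called (1.498 ± 0.598, edgeR adjusted p = 0.17); limma-voom called it (adjusted p = 0.0131). EIF4E2, a weak cap binder known as a repressor, had 0.214, 21.8 and 59.3 CPM after lesion and 12.5, 60.3 and 106 CPM in sham (-1.36 ± 0.55, edgeR adjusted p = 0.18). EIF4E itself averaged 82.3 ± 24.4 CPM after lesion and 97.8 ± 51.2 CPM in sham (-0.25, edgeR adjusted p = 0.858), and EIF4E1B, a form known from oocytes, had no count in any library.

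Among the scaffold genes of the eIF4G family 1 of 5 was called. EIF4G2 on chromosome 7, a relative that lacks the eIF4E-binding site, had 84.4, 173 and 312 CPM after lesion and 39.9, 76.8 and 150 CPM in sham. Its ranges overlapped, with 6 lesion libraries above the highest sham library, and its log2 fold change was 1.24 ± 0.27 (edgeR adjusted p = 0.003). The more abundant EIF4G2 gene on chromosome 18 averaged 367 ± 71.7 and 267 ± 144 CPM and was not called (0.46, edgeR adjusted p = 0.464), and EIF4G1, the classical scaffold, averaged 74.7 ± 33.7 and 45.4 ± 25.97 CPM (0.72, edgeR adjusted p = 0.34).

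The eIF4E-binding protein gene eif4ebp1 was the other initiation-prefixed gene that fell. Its protein blocks the union of eIF4E with eIF4G until mTOR phosphorylates it. It had 113, 200 and 257 CPM after lesion and 217, 256 and 391 CPM in sham, with 7 lesion libraries below the lowest sham library. The log2 difference was -0.53 ± 0.15 (edgeR adjusted p = 0.0319). The call was lost without lesion replicate 5, 8 or 9 or without sham replicate 1, with an adjusted p of up to 0.0698. The related EIF4EBP2 (117 ± 48.4 and 116 ± 73.1 CPM) and EIF4EBP3 (82.5 ± 27.6 and 57.0 ± 29.8 CPM) were not called, and the less abundant eif4ebp3 had the lowest estimate of all tested translation factor genes (-1.41 ± 0.92, edgeR adjusted p = 0.565). Of the remaining eif genes, EIF4A3 of the exon junction complex (0.51, edgeR adjusted p = 0.284) and EIF6, which keeps ribosomal subunits apart (1.13, 0.406), were not called.

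Both eIF5A genes rose. Their protein carries the modified residue hypusine and helps ribosomes over difficult peptide bonds. The gene eif5a had 868, 1117 and 1537 CPM after lesion and 487, 727 and 898 CPM in sham, with 9 lesion libraries above the highest sham library. Its increase was 0.65 ± 0.12 in log2 units (edgeR adjusted p = 0.000525). EIF5A2 had 254, 395 and 734 CPM after lesion and 55.7, 175 and 264 CPM in sham, again with 9 lesion libraries above the highest sham library (1.26 ± 0.23, edgeR adjusted p = 0.000609).

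Of the 3 tested eEF1A genes, which deliver aminoacyl-tRNA, 1 rose and 1 fell. The gene eef1a1l1 (ENSDARG00000020850, chromosome 19, 43523334 to 43539373, plus strand, GRCz10) had 4100, 6698 and 8058 CPM after lesion and 1424, 1897 and 3462 CPM in sham. Every lesion library lay above every sham library. The means were 6482 ± 1175 and 2003 ± 598 CPM (SD, n = 10 each), and the log2 difference was 1.70 ± 0.15 (edgeR adjusted p = 2.87e-08).

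EEF1A1 on chromosome 13 (ENSDARG00000039502, 27184333 to 27194327, plus strand, GRCz10) went the other way. It had 193, 331 and 454 CPM after lesion and 444, 801 and 1021 CPM in sham, and 8 of 10 lesion libraries lay below the lowest sham library. The log2 difference was -1.18 ± 0.17 (edgeR adjusted p = 1.97e-05), and none of the 20 fits that left out 1 library lost the call. The EEF1A1 copy on chromosome 1 had 0 to 78.8 CPM after lesion and 0 to 119 CPM in sham and was not called (edgeR adjusted p = 0.934). The genes eef1a1l3, with 8 counts in all libraries, and eef1a2, a form known from mammalian muscle and neurons, with 6 counts, lay below the filter. Where eEF1A copies are near-identical, the counting may assign a read to another copy or drop it, so that levels of single copies are uncertain.

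All 4 genes of the eEF1B complex rose, the only family of 3 or more tested genes here in which every tested gene was called. EEF1B2, the exchange subunit (ENSDARG00000044521, chromosome 6, 12967027 to 12972720, minus strand), had 375, 526 and 790 CPM after lesion and 76.1, 148 and 352 CPM in sham. The groups did not overlap, and its log2 difference of 1.74 ± 0.23 (edgeR adjusted p = 9e-06) was the highest of the eef genes. EEF1G, the gamma subunit and the most abundant of the complex per length, had 569, 935 and 1209 CPM after lesion and 228, 337 and 558 CPM in sham. It did not overlap either and rose by 1.41 ± 0.16 (edgeR adjusted p = 1.63e-06). The delta subunit has 2 genes here. EEF1D averaged 202 ± 64.5 CPM after lesion and 90.6 ± 47.6 CPM in sham (1.16, edgeR adjusted p = 0.00575), and eef1da averaged 109 ± 29.5 and 58.5 ± 18.2 CPM (0.89, edgeR adjusted p = 0.0142), both with overlapping groups.

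For eEF2, the translocase, 1 of 4 genes was called. The gene eef2b (ENSDARG00000100371, chromosome 2, 56935780 to 56961732, plus strand) had 1172, 2145 and 2550 CPM after lesion and 500.0, 696 and 1314 CPM in sham, and 9 lesion libraries lay above the highest sham library. Its log2 difference was 1.45 ± 0.15 (edgeR adjusted p = 4.51e-07). EEF2 on chromosome 5 had 140, 213 and 328 CPM after lesion and 128, 331 and 512 CPM in sham, and was not called (-0.56 ± 0.23, edgeR adjusted p = 0.194). The genes eef2a.1 and eef2a.2 averaged at most 41.0 CPM in either group and were not called. They overlap on chromosome 22, so that reads from the shared stretch are uncertain. None of the 4 remaining tested eef genes was called. EEF2K, the kinase that inactivates eEF2, averaged 49.1 ± 10.9 CPM after lesion and 89.1 ± 58.8 CPM in sham (-0.86, edgeR adjusted p = 0.455). EEF1E1, the most abundant of these 4 per length, averaged 64.3 ± 17.1 and 53.8 ± 19.2 CPM (0.26, edgeR adjusted p = 0.793).

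The protein of pabpc1a joins the tail of an mRNA to eIF4G at its cap. This poly(A)-binding protein gene (ENSDARG00000017219, chromosome 16, 55121259 to 55143222, plus strand) rose, with little spread among the lesion libraries. It had 1002, 1127 and 1252 CPM after lesion and 307, 383 and 654 CPM in sham, and the groups did not overlap. Its log2 difference was 1.33 ± 0.13 (edgeR adjusted p = 1.41e-07). Its paralog pabpc1b had 349, 507 and 649 CPM after lesion and 202, 431 and 701 CPM in sham, and did not pass the test (0.22 ± 0.18, edgeR adjusted p = 0.694). PABPC4, with 789 counts in 7 lesion and 2 sham libraries, and PABPC1L, with 1 count, lay below the filter.

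TPT1 (ENSDARG00000092693, chromosome 1, 33974974 to 33981243, minus strand) had the highest log2 fold change of all 78 genes. Its protein binds tubulin and calcium and has been linked to growth and to eEF1A in mammals. It had 990.1, 1657 and 2356 CPM after lesion and 342, 448 and 774 CPM in sham. Every lesion library lay above every sham library, and the means of 1709 ± 392 and 485 ± 124 CPM gave a log2 difference of 1.82 ± 0.15 (edgeR adjusted p = 2.1e-08).

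**Figure D2:**
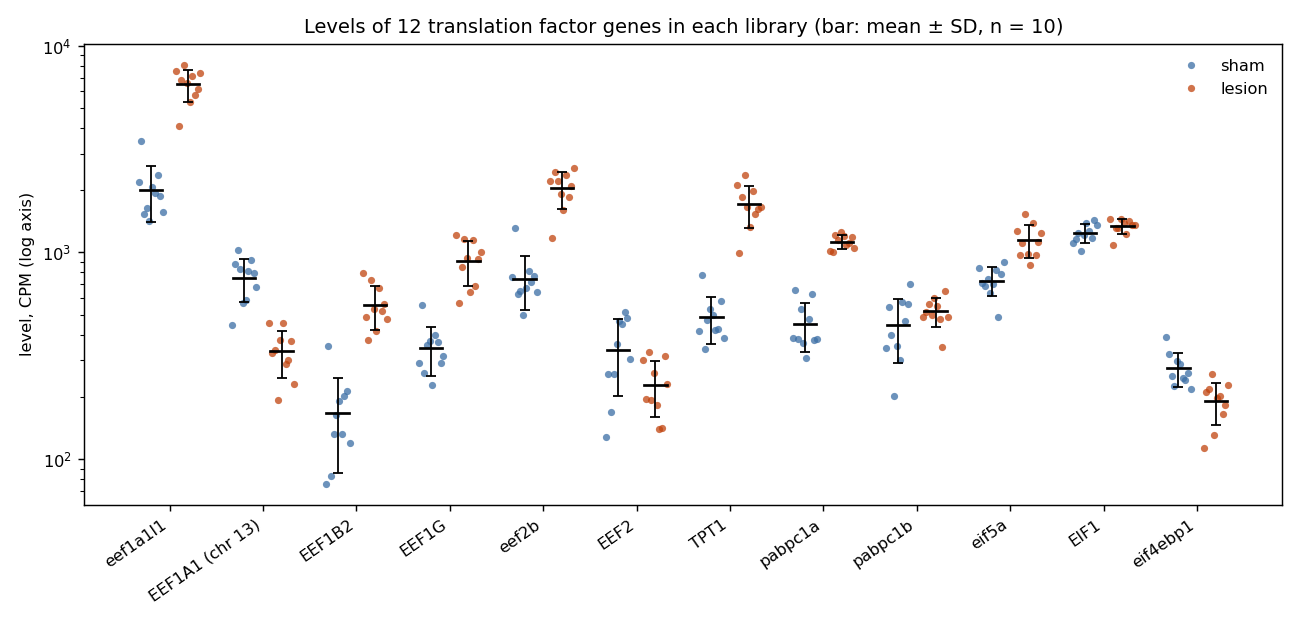
Level of 12 translation factor genes in each of the 20 libraries, in CPM on a log axis; points are libraries, bars mean ± SD with n = 10 per group. The lesion points of eef1a1l1 (4100 to 8058 CPM) lie above its sham points (1424 to 3462 CPM), those of EEF1A1 on chromosome 13 lie mostly below (193 to 454 against 444 to 1021 CPM), and those of EIF1 coincide.

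Levels were set side by side per kilobase of exon. In sham cells EIF1 had the highest level per length of these genes, 790 CPM per kb, followed by eef1a1l1 with 604, eif5a with 317, EEF1A1 on chromosome 13 with 287, eef2b with 262 and TPT1 with 246 CPM per kb. After lesion eef1a1l1 stood first with 1955 CPM per kb, followed by TPT1 with 868, EIF1 with 854, eef2b with 717 and EEF1G with 600.3 CPM per kb, while EEF1A1 on chromosome 13 had 127 CPM per kb. Neighbours in each order overlapped between libraries, with 2 exceptions: the lowest library of eef1a1l1 lay above the highest of TPT1 after lesion and above the highest of eif5a in sham.

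Summed over each class by prefix, the eef genes held about as large a share of all gene counts as the eif genes after lesion (1.07 ± 0.178 and 1.04 ± 0.113%). In sham they held a smaller one (0.475 ± 0.116 and 0.763 ± 0.0866%). Both eIF5A genes, among them the abundant eif5a (93406 lesion and 59989 sham counts), are counted with eif here. Shares by role were not computed, and the order of the classes depends on this sorting. The 62 eif genes held 0.886, 1.03 and 1.24% of all gene counts in the lowest, median and highest lesion library and 0.644, 0.758 and 0.976% in sham. The 18 eef genes held 0.730, 1.08 and 1.31% after lesion and 0.372, 0.440 and 0.774% in sham. The mean eif share was 1.36 times and the mean eef share 2.26 times as high after lesion as in sham.

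In both classes the ranges overlapped, with 6 lesion libraries above the highest sham library for eif and 9 for eef. Sham replicate 2 was the highest sham library in each class, and without it the ratios were 1.41 and 2.43. Within the title rows the eif ratio was 1.45 in row A and 1.24 in row B, and the eef ratio 2.37 and 2.12. The share of all 85 genes together was 2.44 ± 0.311% after lesion and 1.38 ± 0.223% in sham. These shares are descriptions with no test.

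Much of the elongation share was eef1a1l1. It made up 58.5 ± 1.52% of all eef counts after lesion, from 56.1 to 61.0%, and 41.8 ± 4.65% in sham, from 37.4 to 50.9%. Without it the eef share was 0.445 ± 0.0696% after lesion and 0.274 ± 0.0561% in sham, a ratio of 1.62. The pabpc genes held 0.160 ± 0.0126 and 0.0893 ± 0.0216%, a ratio of 1.80, and TPT1 0.166 ± 0.0380 and 0.0487 ± 0.0139%, a ratio of 3.41; neither overlapped. For scale, the cytosolic ribosomal protein genes, counted by symbol as 82 genes, held 5.48 ± 1.21% after lesion and 2.38 ± 0.342% in sham, a ratio of 2.31.

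**Figure D3:**
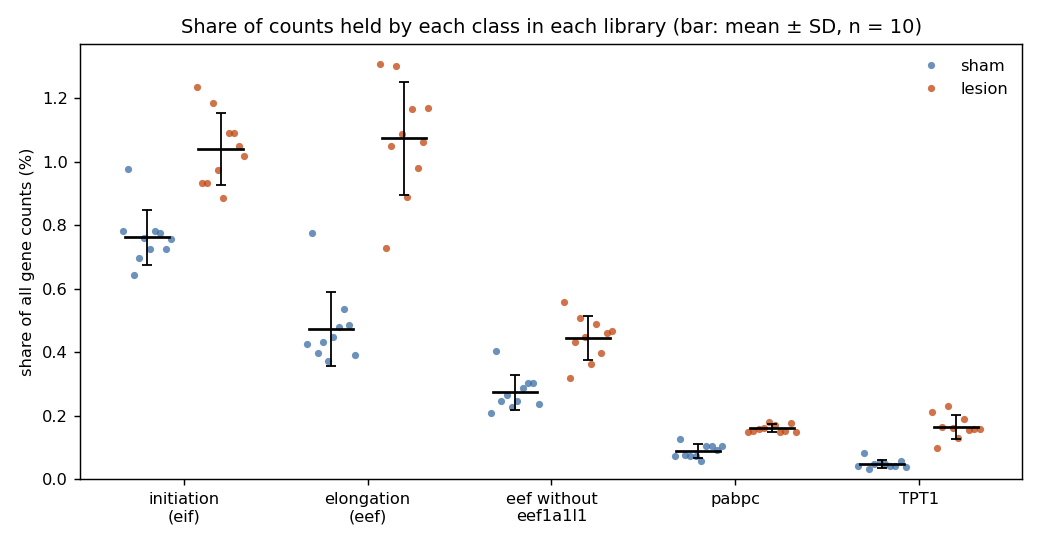
Share of all gene counts held by each class in each library, in percent; points are libraries, bars mean ± SD with n = 10 per group. The eef shares lie at 0.730 to 1.31% after lesion and 0.372 to 0.774% in sham, the eif shares at 0.886 to 1.24% and 0.644 to 0.976%, and 1 sham library, replicate 2, stands above the others.

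Because zebrafish keep several copies of many of these genes, the share of each copy within its family was computed per kilobase of exon. Of the eEF1A level, eef1a1l1 held 90.0, 93.0 and 97.1% in the lowest, median and highest lesion library and 54.1, 64.4 and 79.5% in sham, with no overlap. EEF1A1 on chromosome 13 held most of the rest, a mean of 6.31% after lesion and 32.2% in sham. The mean share of eef1a1l1 was 92.6% after lesion and 63.2% in sham in row A, and 94.0 and 70.4% in row B.

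Of the eEF2 level, eef2b held 90.5 ± 2.18% after lesion (87.3 to 94.3%) and 72.0 ± 9.87% in sham (60.4 to 87.8%). EEF2 on chromosome 5 held 4.34 to 11.3% after lesion and 11.5 to 35.6% in sham, without overlap. Of the PABPC1 level, pabpc1a held 69.0 ± 2.99% and 51.3 ± 10.1%, with overlapping ranges. In these 3 families the shares varied less among lesion than among sham libraries.

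In the other families, lesion and sham ranges overlapped. EIF3H on chromosome 16 held 74.0 ± 9.16% of the EIF3H level after lesion and 43.8 ± 21.5% in sham, where single libraries ran from 0 to 72.2%. EIF5A2 held 20.7% of the eIF5A level after lesion and 14.9% in sham, EIF1B 20.4 and 15.5% of the EIF1 level, and eif4a1a 25.2 and 17.9% of the eIF4A level. EIF4G2 on chromosome 7 held 31.5 and 24.9% of the EIF4G2 level, eif3ea 94.0 and 88.3% of the eIF3E level, and EEF1D 61.6 and 55.5% of the eEF1D level. Of the copies called higher, eif5a (79.3 and 85.1%) and eef1da (38.4 and 44.5%) had the smaller mean share after lesion. In row B alone the mean shares of eif3ea (93.8 and 95.3%), EEF1D (56.2 and 57.9%) and eef1da (43.8 and 42.1%) went the other way. The mean share of the EIF2S1 copy on chromosome 20 was 71.8 and 71.5%, but single sham libraries ran from 19.3 to 100%. Its means were 71.0 and 61.8% in row A and 73.1 and 86.0% in row B. For eif4ebp1 the share was 53.4 and 65.7% of the eIF4E-binding protein level. These shares use levels already tested above and are given without a test of their own.

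**Figure D4:**
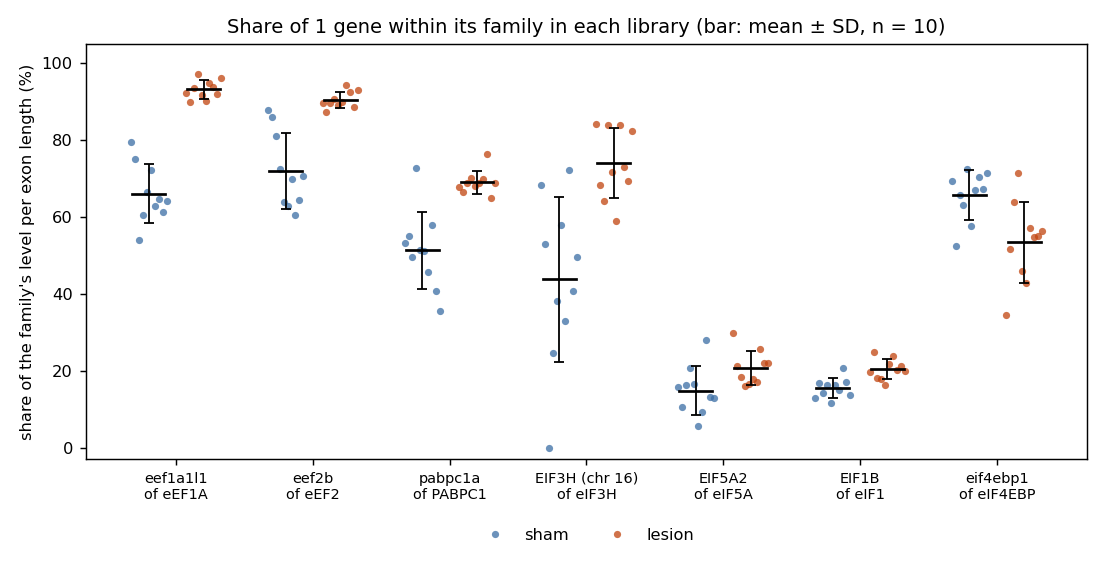
Share of 1 gene within its family, as percent of the family's level per exon length, in each library; points are libraries, bars mean ± SD with n = 10 per group. For eef1a1l1 all lesion points (90.0 to 97.1%) lie above all sham points (54.1 to 79.5%), and for EIF3H on chromosome 16 the sham points spread from 0 to 72.2%.

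The calls followed abundance. Of the 26 most abundant tested genes, 14 were higher and 2 lower, of the 26 in the middle 7 and 1, and of the 26 least abundant 0 and 0. From the most to the least abundant, the median log2 fold change was 0.69, 0.56 and 0.26 and the median standard error 0.18, 0.30 and 0.64. The scarce genes thus had both larger standard errors and smaller estimates, and the part of each in their lack of calls was not tested. The tested translation factor genes varied less between libraries than genes in general: their median coefficient of variation was 30.6% after lesion and 51.6% in sham, and that of all genes tested 55.8 and 82.4%. The groups differ in abundance, with a median level of 84.8 CPM for the translation factor genes and 24.95 CPM for all genes tested. Lesion replicate 1 was the highest lesion library for 22 of the 78 genes and replicate 4 for 16, lesion replicates 2 and 6 were the lowest for 16 each, and sham replicate 2 was the highest sham library for 19.

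When the number of detected genes entered the fit as a second term, 6 of the 24 calls were kept, although the count of detected genes itself separates the groups fully. They were those of TPT1, eef1a1l1, eef2b, EEF1G, pabpc1a and EEF1A1 on chromosome 13. In the 8 libraries of row B alone 5 of the 24 were kept, those of TPT1, eef1a1l1, eef2b, EEF1G and pabpc1a, and in the 12 of row A 15 were kept. Calls over all genes tested also fell, from 454 higher and 339 lower to 140 and 36 with detected genes. They were 207 and 40 in row B and 336 and 201 in row A. The translation factor calls that were lost kept their direction, while their sizes moved either way. With detected genes the log2 fold change of eif3ea was 1.71, of EIF5A2 1.07 and of EIF3I 0.89, whereas that of EIF1B was 0.23 and that of eif4ebp1 -0.20. In row B it was 1.66 for EEF1B2 and 1.02 for EIF3M.

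Genes that work beside these factors were counted from lists of symbols, and the shares of all genes tested to set beside each count are 4.34% higher and 3.24% lower. Aminoacyl-tRNA synthetases charge the tRNAs that eEF1A carries. With AIMP1 and AIMP2, which are not synthetases, 22 genes of this list were tested, and 3 (13.6%) were higher and 0 lower (median log2 fold change 0.83). Those called were NARS1 (125 ± 48.1 against 41.1 ± 18.4 CPM, log2 difference 1.601, edgeR adjusted p = 0.000545), SARS1 (1.99, 0.013) and GARS1 (2.05, 0.0478).

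Of 14 tested partners of the nascent chain and the ribosome 4 (28.6%) were higher and 0 lower (median 0.45). RACK1, a protein of the small subunit, rose from 355 ± 119 to 1068 ± 261 CPM (1.59, edgeR adjusted p = 1.65e-06). The subunits of the nascent polypeptide-associated complex naca (0.86, edgeR adjusted p = 2.95e-05) and BTF3 (0.60, 0.0125) also rose, as did SERBP1, which binds idle ribosomes (0.50, 0.0415). Of 7 tested termination and recycling genes 1 was higher, DENR (130 ± 20.1 against 71.4 ± 31.5 CPM, 0.86, edgeR adjusted p = 0.0295), and 0 were lower.

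Of 24 tested genes that act on poly(A) tails or caps 2 were higher and 2 lower (8.33% each, median 0.09), a list over which no test was made. TOB1, which recruits deadenylases, fell from 721 ± 118 to 317 ± 59.1 CPM (-1.19, edgeR adjusted p = 4.51e-07), and PAIP2B, an inhibitor of poly(A)-binding protein, fell from 183 ± 63.3 to 60.0 ± 16.7 CPM (-1.605, edgeR adjusted p = 1.46e-05). The RNA-binding protein gene YBX1 rose by 0.76 (edgeR adjusted p = 8.02e-05) and CYFIP2 by 0.71 (edgeR adjusted p = 0.0448). PDCD4, an inhibitor of eIF4A, averaged 294 ± 139 CPM after lesion and 463 ± 87.7 CPM in sham and was not called (-0.66, edgeR adjusted p = 0.0953).

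Of 22 tested genes of mTOR signalling and the stress kinases 2 were higher and 2 lower (9.09% each, median 0.14), again with no test over the list. The genes that fell encode inhibitors of mTOR complex 1: DDIT4 went from 62.4 ± 35.6 to 10.9 ± 6.71 CPM (-2.52, edgeR adjusted p = 0.0011) and akt1s1 from 346 ± 62.6 to 199 ± 45.8 CPM (-0.80, edgeR adjusted p = 0.000758). Those that rose were RPS6, a substrate of the pathway and a ribosomal protein (1.37, edgeR adjusted p = 1.26e-07), of which 78 of 81 tested genes were higher, and atf4b, a transcription factor of the stress response (0.52, edgeR adjusted p = 0.00478). Other listed inhibitors of the complex were not called and went either way: TSC2 (0.53), DEPTOR (0.03), SESN1 (-0.93) and the TSC1 genes (-1.80 and 0.50). MTOR itself averaged 107 ± 58.1 and 100.2 ± 28.9 CPM (0.10, edgeR adjusted p = 0.971), and the activity of the kinases of this list is not measured by RNA.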

How the data were processed

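RNA sequencing libraries of reporter-positive zebrafish spinal cord cells, 10 lesion and 10 sham, were compared. The authors deposited 1 table of raw read counts per gene and its exon lengths. Per the submitters' processing notes reads were split with bcl2fastq 2.19.1, aligned to GRCz10 with GSNAP, and assigned to genes with featureCounts 1.6.2. The gene models were those of Ensembl release 87, per the file headers; a mapping quality of at least 1 was required and strand was ignored, so that overlapping genes on opposite strands cannot be told apart. Of 32358 rows, 92 spike-in rows with 2 counts in all were left out. Symbols, known for 26433 of 32266 genes, come from a table of Ensembl names. Columns were matched to samples by title; 0 columns were unused.

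The whole table was fitted with edgeR 4.0.16 in R 4.3.3 (filterByExpr, trimmed mean of M values, quasi-likelihood F test, group as the only term, two-sided, Benjamini-Hochberg over 10467 genes, threshold 0.05) and tested on simulated counts. Standard errors were derived from the F statistic as the log2 fold change, unsigned, over the root of F. CPM uses the scaled library sizes; means are ± SD, n = 10. Shares were computed with Python 3.11.15 and pandas 2.3.3. Alternatives used DESeq2 1.42.0, limma 3.58.1, other scalings, no filter, the title row, detected genes, and left-out libraries. The genes, lists and tests were chosen with earlier results of these data known. Named genes are those called, the 10 most abundant per length, the most abundant of each role, paralogs of these, and the extremes of each class; genes below the filter are named from 50 counts. EIF1A genes, EIF2B1, EIF2D, EIF3A, EIF3CL, EIF3D, EIF3G, EIF3K, EIF4E, EIF4E2, EIF4G1, EIF6, EEF2K, EIF4E1B and the scarcest copies were added after their values were seen, as were PDCD4, MTOR, TSC1, TSC2, DEPTOR and SESN1. Some marker and list genes are not reported here. No genome or sequence table was used here, so no sequences are shown.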

Additional observations from a re-analysis of the deposited data

Results flagged for a closer look

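In 118 groups of 10 values, the levels of the named genes and the class shares in each group, 22 had 1 library standing apart from the other 9 by more than Dixon's 95% criterion. For normally distributed values chance gives about 1 in 20 such groups. That rate need not hold here, since some groups consist mostly of libraries at 0 CPM. Genes measured in the same libraries are not independent, and some, such as eef1a1l1, enter both by level and by share.

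Sham replicate 2 accounts for 13 of these. It was the highest sham library for eef1a1l1 (3462 CPM, next 2378), eef2b (1314, next 812), EEF1G (558.0, next 396), EEF1B2 (352, next 214) and EIF4EBP2 (317, next 138 CPM). It was also the highest in its share of counts: 1.96% for all 85 genes, 0.976% for eif, 0.774% for eef, 0.0824% for TPT1, 0.369% for eef1a1l1, 1.59% for all genes without eef1a1l1, 0.405% for eef without eef1a1l1, and 3.24% for the ribosomal protein genes. Lesion replicate 1 stood above the other lesion libraries for EIF5A2 (734 CPM, next 479), eif4a1a (500.5, next 347) and EIF3F (270.0, next 237), lesion replicate 4 for eef2a.1 (99.1 CPM), and sham replicate 3 for EIF3L (269.8 CPM, next 179). The remaining 4 are scarce genes, EIF3B on chromosome 1 (18.4 CPM in sham replicate 7), eef2a.2 (18.3 CPM in sham replicate 6), EEF1AKMT4 (11.1 CPM in sham replicate 9) and PABPC4 (5.70 CPM in sham replicate 4). The part of library quality or cell content in these values was not tested.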

How the results depend on the processing

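Every one of the 24 calls kept its direction under the 10 other settings and the 20 fits without 1 library, and DESeq2, limma-voom, both other scalings, no filter and the title row as covariate kept all 24. The median log2 fold change of all genes tested was 0.03, and moved to 0.70 with limma-voom, 0.21 without a filter and -0.13 with detected genes as a covariate. That of the tested translation factor genes was 0.52, and became 0.73, 0.52 and 0.47 in the same settings. With limma-voom the eif median was 0.70, so that it and the median of all genes tested nearly met. Over all genes tested, those called higher went from 454 of 10467 to 1380 of 10467 with limma-voom, 207 of 10437 in row B and 140 of 10467 with detected genes. Those called lower went from 339 to 387, 40 and 36, to 201 in row A and to 237 without lesion replicates 2, 9 and 10. The 21 translation factor genes called higher became 6 in row B and 5 with detected genes. The 3 called lower became 1 in row A, 0 in row B, 1 with detected genes and 1 without lesion replicates 2, 9 and 10. The 13 eif genes called higher became 20 with limma-voom, 1 in row B and 0 with detected genes, and the 2 lower became 0 in row A, in row B, with detected genes and without those 3 replicates, and 1 when classes followed role. The 6 eef genes called higher became 3 in row B and 3 with detected genes, and the 1 lower became 0 in row B. The eef median of 0.32 became 1.25 with limma-voom, 1.05 in row B, 0.89 by role and -0.045 with detected genes.

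Leaving out 1 library gave 20 to 23 genes higher and 1 to 3 lower, 12 to 15 eif genes higher and 0 to 2 lower, 6 eef genes higher and 1 to 2 lower, and medians of 0.48 to 0.57 for eif and 0.19 to 0.59 for eef. EIF3K was called without sham replicate 1, EIF3G without sham replicate 2 or 6, EIF2S3B without sham replicate 6 and EEF2K without sham replicate 7. The genes that limma-voom called beyond the 24 were EIF2A, EIF2S1 on chromosome 17, EIF2S3B, EIF3D, EIF3G, EIF5 and eif4e1c. Genes not called changed sign: EIF2B2 to -0.73 in row B and -0.27 with detected genes, EIF4A2 to 0.066 and EIF5 to -0.014 in row B, EIF4EBP2 to -0.061 with DESeq2 or its size factors, -0.029 with library totals, -0.60 in row B, -0.64 with detected genes and -0.10 to 0.30 with 1 library left out, EEF1A1 on chromosome 1 to 0.04 with limma-voom, eef2a.1 to -0.51 in row A, eef2a.2 to 0.10 with limma-voom, 1.14 in row B, 0.092 without the 3 replicates and -0.48 to 0.28 with 1 library left out, EEF1E1 to -0.076 and pabpc1b to -0.07 in row B, and both, to -0.18 and -0.10, with detected genes. The causes were not tested. Members found from the name table alone are the same as here, since the RefSeq table pairs no Ensembl identifiers, so that setting was not run. No paired analysis was possible because the numbers in the titles are not shared between the groups, and the replicate numbers used here follow accession order and tie no lesion library to a sham library.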

Other observations

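Several translation factor genes below the filter on low counts had counts in more lesion than sham libraries. PABPC4 was counted in 7 lesion and 2 sham libraries (789 counts in all), EEF1AKMT4, a methyltransferase of eEF1A, in 9 and 2 (414 counts), and EIF3B on chromosome 1 in 7 and 2 (413 counts). Lesion libraries held counts of more genes throughout, and the part of that in these values was not tested. The highest PABPC4 level was 39.7 CPM in a lesion library, against 5.70 CPM in the highest sham library.

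Among tested genes, some libraries came close to 0 for genes readily counted in others of their group. EIF2S3B had 0.115 CPM in sham replicate 6 and 163 CPM in the highest sham library, and EIF3H on chromosome 16 had 0 and 108 CPM. EIF2A had 0.243 and 1.55 CPM in sham replicates 3 and 4 and 56.5 CPM in the highest. After lesion EIF4E2 had 0.214 CPM in replicate 8 and 59.3 CPM in the highest library, and eif4ba had 0 CPM in replicate 6 and 49.5 CPM in the highest. The median coefficient of variation of the tested eif genes was 52.3% in sham and 33.0% after lesion.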
